A study of Homo sapiens with 12 samples.

Results

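MicroRNA host genes are long non-coding RNA (lncRNA) genes that carry microRNA genes in their introns or exons. They were taken as the lncRNA genes on assembled chromosomes of hg38 whose RefSeq symbol starts with MIR and ends with HG. The rule found 87 genes among 18010 lncRNA genes and 58957 genes in all. The median host was 19472 bp long (911 to 571233 bp), against 9108.5 bp for all lncRNA genes. Of the 87 hosts, 85 held at least 1 annotated microRNA gene, with 142 microRNA genes in all. MIR124-1HG and MIR670HG held none by position.

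The peaks came from chromatin immunoprecipitation sequencing with anti-Flag beads in U2OS cells, an osteosarcoma cell line. Stable tet-on lines expressed 1 of 2 Flag-tagged, nuclease-dead proteins, REXO4-D386A (an exonuclease mutant) or RNaseH1-D210N (whose active form cuts the RNA of RNA-DNA hybrids). Each line was grown with doxycycline at 1 µg/ml or without it for about 60 h. Each of these 4 conditions had 2 precipitated libraries and 1 input library, which makes 12 libraries. The sources do not say which conditions were compared to call peaks, nor whether a line was 1 clone. The results below rest on 2 peak lists, 1 for each protein, with 54623 RNaseH1 and 1460 REXO4 peaks. The lists hold no value per library, so no replicate error can be given and no condition can be compared. They also hold no expression, so neither the cell line nor host transcription was checked.

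As background, a host transcript or a primary transcript within it folds into a hairpin. Drosha and DGCR8 cut the hairpin out in the nucleus, Dicer trims it in the cytoplasm, and an Argonaute protein loads 1 strand. The bases of the mature microRNA called the seed pair with target messages. Where nascent RNA pairs again with its template, an R-loop forms, and catalytically dead RNaseH1 is used to mark such hybrids on chromatin. R-loops are known at GC-rich promoters and at transcript ends.

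The mature sequences below show the microRNAs whose hosts the results turn on. They come from the RefSeq table of GRCh38.p14, run 5′ to 3′, and carry the seed, bases 2 to 8, in capitals. The table matched 133 of the 142 microRNA genes, with 226 mature sequences in 77 hosts. The first group belongs to hosts of high RNaseH1 enrichment or with a peak at the microRNA. The pairs after it share a seed between different hosts.
hsa-miR-210-3p (MIR210HG): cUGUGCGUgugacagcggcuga
hsa-miR-31-5p (MIR31HG): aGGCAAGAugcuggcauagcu
hsa-miR-9-5p (MIR9-1HG): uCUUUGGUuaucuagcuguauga
hsa-miR-142-3p (MIR142HG): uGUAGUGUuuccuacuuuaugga
hsa-miR-2682-5p (MIR137HG): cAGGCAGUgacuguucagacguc
hsa-miR-34b-5p (MIR34BHG): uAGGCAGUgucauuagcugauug
hsa-let-7i-5p (MIRLET7IHG): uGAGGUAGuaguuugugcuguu
hsa-let-7b-5p (MIRLET7BHG): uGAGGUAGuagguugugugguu
hsa-miR-4458 (MIR4458HG): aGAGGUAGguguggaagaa
hsa-miR-17-5p (MIR17HG): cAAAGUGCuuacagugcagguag
hsa-miR-106a-5p (MIR106AHG): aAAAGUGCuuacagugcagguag
hsa-miR-365a-3p (MIR193BHG): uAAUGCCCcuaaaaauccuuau
hsa-miR-365b-3p (MIR365BHG): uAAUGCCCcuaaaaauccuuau
hsa-miR-200c-3p (MIR200CHG): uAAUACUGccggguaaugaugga
hsa-miR-200b-3p (MIR200BHG): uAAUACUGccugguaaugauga

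A larger share of microRNA host genes than of lncRNA genes as a whole had an RNaseH1 peak. Peaks per 10 kb of gene and flank were not higher when pooled (0.204 against 0.213). Summits within 1 kb of a gene boundary were denser in hosts, 1.43 per 10 kb against 0.769. Elsewhere the densities were 0.139 and 0.115, a difference within counting error. Boundary zones make up less of the hosts, which are longer. A peak overlapped the gene or the 1 kb on either side of it in 57 of 87 hosts (65.5%, 95% exact binomial interval 54.6 to 75.4). The share of all lncRNA genes was 37.4%, and that of protein-coding genes, which are longer, was 78.5%. Weighting the lncRNA genes to the hosts' mix of length classes gave 43.1%. Counting only the 1 kb on either side of a gene boundary gave 43 hosts (49.4%, interval 38.5 to 60.4) against 27.2%. Such intervals cover counting error over genes alone, and neighbouring genes share the same libraries.

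The share of hosts was above that of lncRNA genes in each length class, beyond counting error in 2 of them. Under 5 kb, 16 of 24 hosts (66.7%, interval 44.7 to 84.4) had a peak, against 33.2% of lncRNA genes of that length. From 5 to under 20 kb the count was 11 of 21 (52.4%, 29.8 to 74.3) against 33.4%, which lies inside the interval. From 20 to under 100 kb it was 16 of 22 (72.7%, 49.8 to 89.3) against 43.0%. At 100 kb or more it was 14 of 20 (70.0%, 45.7 to 88.1) against 65.2%, so the difference could not be told from counting error there.

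**Figure D1:**
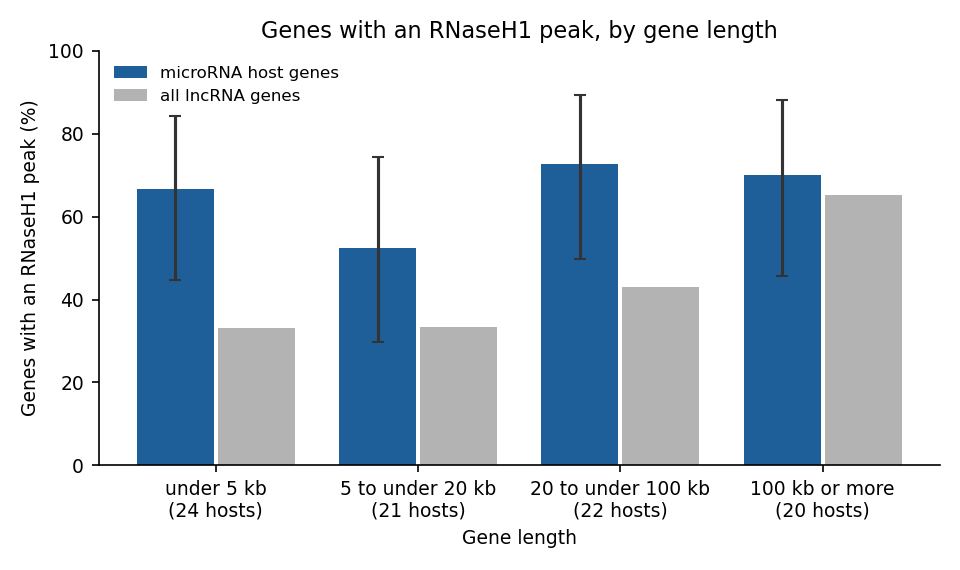
Share of genes with an RNaseH1 peak over the gene or within 1 kb of it (y axis, %) by gene length (x axis), for microRNA host genes (blue, bars with 95% exact binomial intervals) and all lncRNA genes (grey). The hosts' share lies above the grey bar in each class, and the grey bar falls inside the interval from 5 to under 20 kb and at 100 kb or more.

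The share was also above that of lncRNA genes away from protein-coding genes. Of 72 hosts with no protein-coding boundary within 1 kb of theirs, 44 (61.1%) had an RNaseH1 peak, against 28.3% of such lncRNA genes. Of 15 hosts with such a boundary, 13 had a peak, against 80.2%. These shares were not weighted for gene length, and the hosts are longer than lncRNA genes as a whole. Other lncRNA families defined by symbol stood higher. Small nucleolar RNA hosts (symbols starting with SNHG) had a peak at 26 of 29 genes (89.7%) and divergent transcripts (symbols ending with -DT) at 546 of 591 (92.4%).

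REXO4 peaks were at 2 hosts of 87 (2.30%, interval 0.280 to 8.06), against 1.67% of lncRNA genes and 5.5% of protein-coding genes. Both lay within 1 kb of a gene boundary, where the share of lncRNA genes was 1.26%. At this count the hosts could not be told apart from other lncRNA genes. MIR3659HG had a REXO4 peak at chr1:38046151-38046883 with a summit 399 bp before the gene's start. Its fold enrichment was 2.76 (95% exact Poisson interval 2.07 to 3.61), from 51 fragments where 17.8 were expected. A boundary of POU3F1, which encodes a POU-domain transcription factor, lay within 1 kb of the same summit, so the peak cannot be given to 1 gene.

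MIR23AHG, host of the miR-23a, miR-27a and miR-24-2 cluster, had the other. Its REXO4 peak at chr19:13842582-13842990 had a fold of 1.45 (1.24 to 1.68), from 171 fragments where 118 were expected, with the summit 218 bp inside the start. That is a low value for the list, whose middle range of folds ran from 1.89 to 3.08. It overlapped an RNaseH1 peak at chr19:13842284-13843106 with a fold of 3.76 (3.21 to 4.38) and 164 fragments against 42.9, whose summit was 136 bp inside the start. At MIR3659HG the nearest RNaseH1 peak, chr1:38046922-38047901, had a fold of 2.62 (1.97 to 3.41) and did not overlap the REXO4 peak. So 1 of 148 RNaseH1 peaks over hosts (0.676%) overlapped a REXO4 peak, beside 2.03% over the whole RNaseH1 list, and 1 of 2 REXO4 peaks overlapped an RNaseH1 peak, beside 71.5% over the whole REXO4 list.

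The 148 RNaseH1 peaks over hosts had the strength of the list at large. Their median fold enrichment was 3.06 (quartiles 2.63 and 3.52, range 1.86 to 5.44), and that of the list was 3.07 (2.64 and 3.60). The median host peak was 368 bp wide and held 23 fragments where 7.74 were expected. Of the 148, 73 were above the median of the list, 16 were in its top 10% and 0 in its top 1%. A single peak was found at 29 hosts, 2 or 3 at 16 and 4 or more at 12. The 5 hosts with most peaks held 49 of the 148 (33.1%). Per 10 kb of gene and flank the hosts had 0.204 peaks and lncRNA genes 0.213. These rates pool boundary zones with the rest of the genes, which are given apart below.

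RNaseH1 summits were denser at gene boundaries than elsewhere in the hosts, although most of the 148 peaks lay at neither a boundary nor a microRNA. Of the 148, 37 were within 1 kb of a boundary only, 12 within 1 kb of both a boundary and a microRNA gene, 7 near a microRNA gene only and 89 near neither. The other 3 had their summit beyond the 1 kb flank. Among the 67 peaks with a -log10 q of 5 or more, boundaries held 52.2%, against 33.1% of the 148. With no limit on q, 49.9% of peaks over all lncRNA genes were at boundaries and 46.5% away from them. The 148 host peaks had 33.1% and 64.9%, so a smaller share of host peaks lay at boundaries. These shares do not allow for zone size. Boundary zones covered 343 kb of the hosts, with 6910 kb away from them. For lncRNA genes, counted gene by gene, the sizes were 70467 and 439875 kb. By host, 41 of 57 had a summit at a boundary, beside 4540 of the 6729 lncRNA genes with a peak. Summits at neither a boundary nor a microRNA gene were all that 11 hosts had. Per 10 kb, boundaries held 1.43 summits (49 summits, interval 1.06 to 1.89) and the rest of the genes 0.139 (96 summits, 0.113 to 0.170). All lncRNA genes, with a peak counted once for each gene, had 0.769 and 0.115. The hosts' boundaries were thus denser than those of other lncRNA genes beyond counting error, and the difference inside the genes was smaller.

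Zones around the microRNA were less dense than boundaries. Those within 1 kb of a microRNA gene and away from boundaries held 0.417 summits per 10 kb (7 summits, interval 0.168 to 0.859), and stretches away from both held 0.132 (0.106 to 0.162). Zones near both a boundary and a microRNA gene held 2.24 (1.16 to 3.91), and boundaries without a microRNA gene 1.28 (0.900 to 1.76), with intervals that overlap. Of the 142 hosted microRNA genes, 28 (19.7%, 13.5 to 27.2) had an RNaseH1 peak within 1 kb, against 20.2% of 1771 microRNA genes outside the hosts. A peak overlapped 12 of the 142 (8.45%), against 9.77% of the others. No hosted microRNA gene had a REXO4 peak within 1 kb, 0 of 142, which allows a share of up to 2.56% by the exact interval, beside 1.36% of the others.

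**Figure D2:**
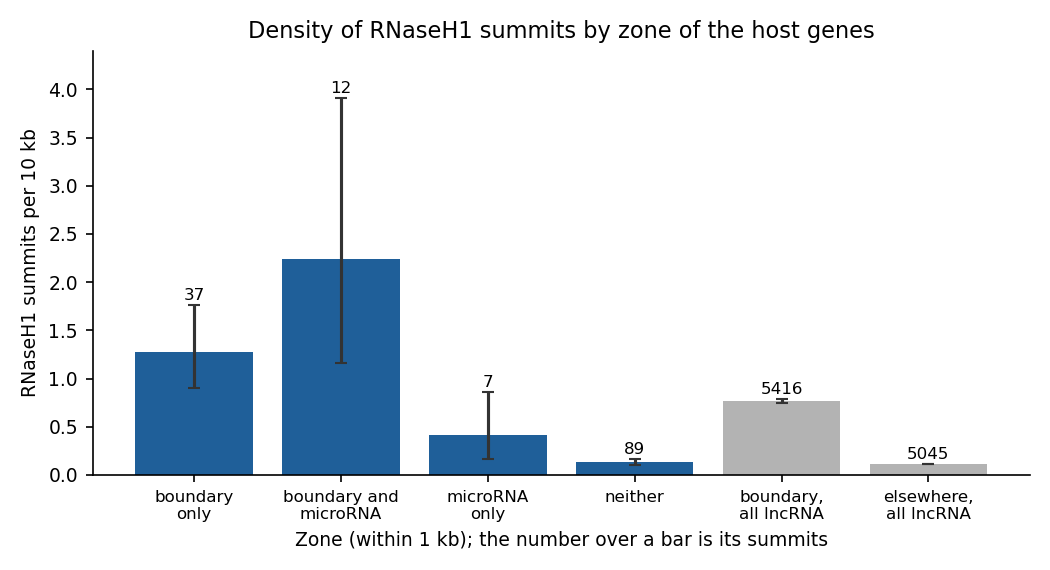
RNaseH1 summits per 10 kb (y axis) in zones of the 87 host genes (blue) and of all lncRNA genes (grey), with 95% exact Poisson intervals and the number of summits over each bar. Boundary zones reach 1.28 and 2.24, the zone near a microRNA gene only 0.417 and the remainder 0.132.

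Boundary peaks were wider and better supported, not more enriched. The 49 had a median width of 823 bp and 73 fragments where 22.6 were expected, with a median fold of 3.0. The 96 away from boundaries had a median width of 309 bp and 20 fragments where 5.86 were expected, with a median fold of 3.08. A width of 500 bp or more was found at 34 of 49 boundary peaks and 17 of 96 others. A -log10 q of 5 or more was found at 35 (71.4%) and 30 (31.2%). Over all lncRNA genes the same medians were 606 and 323 bp, with folds of 3.06 and 3.12.

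**Figure D3:**
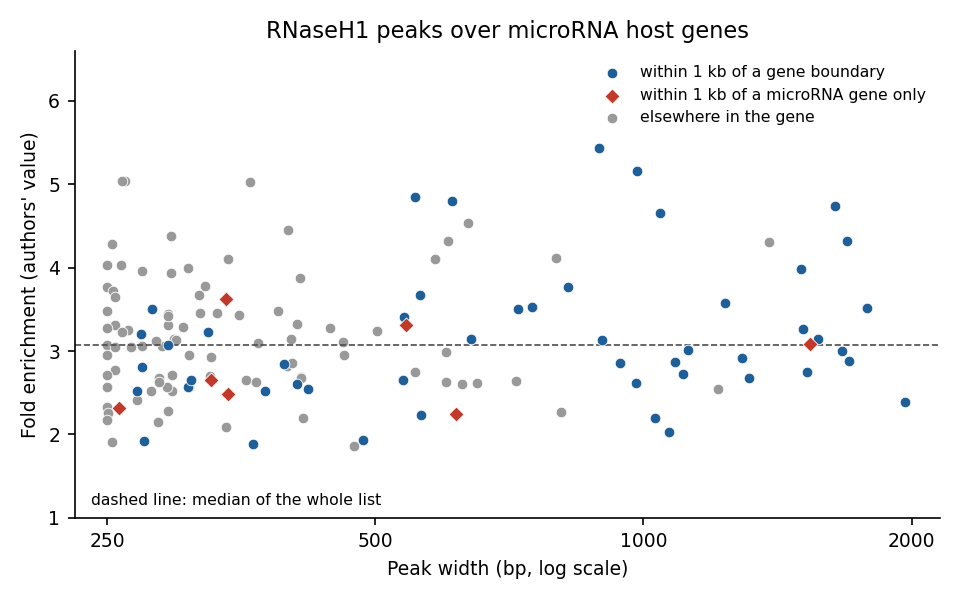
Fold enrichment (y axis, the authors' value) against peak width (x axis, bp, log scale) for RNaseH1 peaks over host genes whose summit lies within the gene or its 1 kb flanks. Blue points are within 1 kb of a gene boundary, red within 1 kb of a microRNA gene only, grey elsewhere, and the dashed line is the list's median fold of 3.07. Blue points spread to large widths at folds like those of the grey points.

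The gene start, not its end, held most boundary summits. A strand was listed for 69 of the 87 hosts, and 44 boundary summits belonged to these. Of the 44, 36 (81.8%) were nearest the start, close to the 84.9% of 4087 over lncRNA genes, and 8 were nearest the end. The 36 lay at 34 hosts, 18 inside the gene and 18 before it, at a median of 258 bp from the start. Start peaks had a median width of 960 bp and end peaks 546 bp. For 14 start summits the boundary of another gene also lay within 1 kb, a protein-coding one in 9, and in such cases the peak cannot be given to 1 gene.

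**Figure D4:**
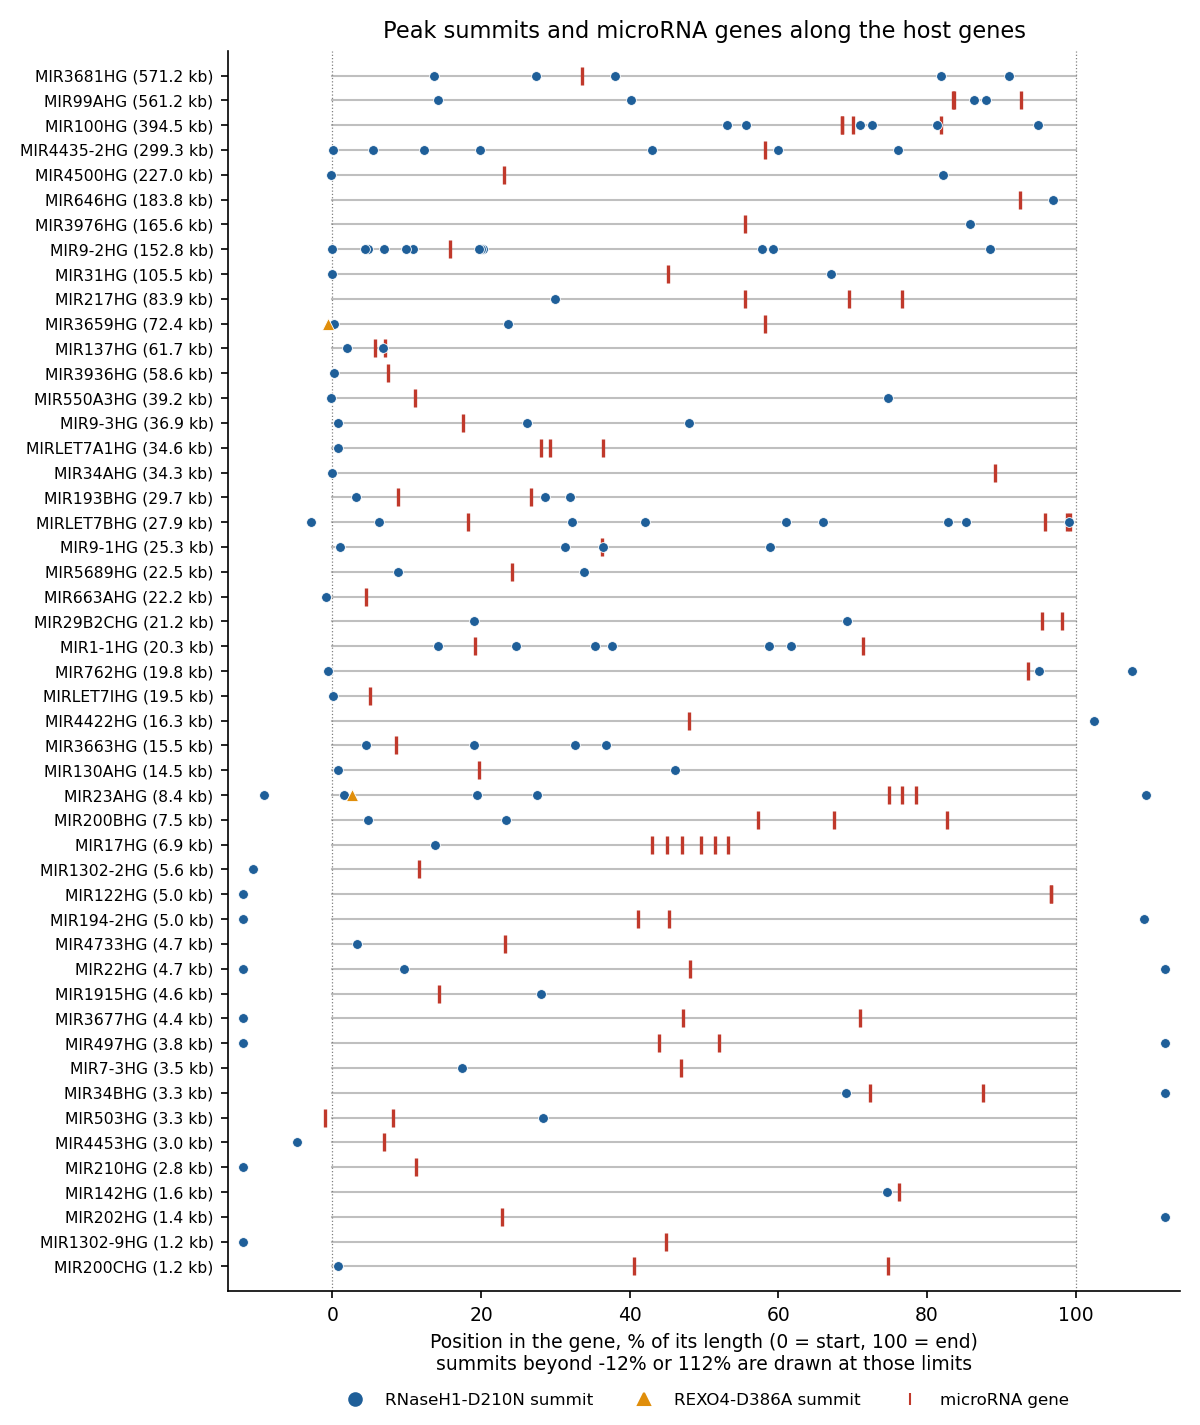
RNaseH1 summits (blue circles), REXO4 summits (orange triangles) and microRNA genes (red bars) along the 49 hosts with a listed strand and an RNaseH1 peak, ordered by length, with position as % of the gene from start (0) to end (100). Blue circles gather at 0 in many hosts, and most red bars have no circle on them.

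The promoters of hosts with and without a start peak differed in base composition. RefSeq promoters of GRCh38.p14, 250 bases before to 50 after the start, were matched for 67 hosts whose listed start is the gene boundary. The 32 with an RNaseH1 summit within 1 kb of the start had a median GC content of 67.5% (46.7 to 80.0%). The 35 without had 48.7% (28.0 to 71.3%), so the ranges overlapped. The ratio of observed to expected CpG was 0.759 in the former and 0.310 in the latter. All 11065 lncRNA promoters showed the same order, 65.7% GC with such a summit and 46.0% without. At 60% GC or more, 22 of 29 hosts had a start summit (75.9%, interval 56.5 to 89.7), beside 68.9% of lncRNA promoters. Under 60% GC, 10 of 38 hosts had one (26.3%, 13.4 to 43.1), above the 11.4% of lncRNA promoters.

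The promoters of MIR210HG and MIR31HG, of highest fold, and of MIR23AHG, with a peak in both lists, are printed first. The pair MIR17HG and MIR106AHG follows, which make related microRNA clusters and differ in the RNaseH1 list. Each run is 5′ to 3′ on the gene's strand with CG, which reads the same on both strands, in capitals. At least 1 CG was in 64 of the 67 host promoters (95.5%) and in 92.9% of lncRNA promoters, with a median of 11 and 5.
MIR210HG, chr11:568408-568707, minus strand: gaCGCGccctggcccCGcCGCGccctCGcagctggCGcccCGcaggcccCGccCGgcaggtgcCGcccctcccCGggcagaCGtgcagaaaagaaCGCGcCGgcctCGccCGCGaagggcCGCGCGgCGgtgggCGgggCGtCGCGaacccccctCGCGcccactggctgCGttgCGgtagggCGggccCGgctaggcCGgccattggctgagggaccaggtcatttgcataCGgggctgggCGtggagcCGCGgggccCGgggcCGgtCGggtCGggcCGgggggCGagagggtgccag
MIR31HG, chr9:21559749-21560048, minus strand: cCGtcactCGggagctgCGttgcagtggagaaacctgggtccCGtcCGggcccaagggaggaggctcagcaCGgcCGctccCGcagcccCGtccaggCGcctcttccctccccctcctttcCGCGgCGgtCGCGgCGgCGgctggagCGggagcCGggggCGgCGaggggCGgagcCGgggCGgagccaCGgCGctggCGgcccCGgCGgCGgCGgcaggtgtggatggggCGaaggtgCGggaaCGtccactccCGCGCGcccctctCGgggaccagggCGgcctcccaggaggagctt
MIR23AHG, chr19:13842869-13843168, minus strand: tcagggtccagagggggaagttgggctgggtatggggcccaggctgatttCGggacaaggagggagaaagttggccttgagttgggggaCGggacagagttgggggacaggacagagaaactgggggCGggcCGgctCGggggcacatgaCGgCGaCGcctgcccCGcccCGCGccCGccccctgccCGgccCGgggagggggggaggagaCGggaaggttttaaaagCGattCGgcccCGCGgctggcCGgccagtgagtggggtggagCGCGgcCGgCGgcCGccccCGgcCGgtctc
MIR17HG, chr13:91347437-91347736, plus strand: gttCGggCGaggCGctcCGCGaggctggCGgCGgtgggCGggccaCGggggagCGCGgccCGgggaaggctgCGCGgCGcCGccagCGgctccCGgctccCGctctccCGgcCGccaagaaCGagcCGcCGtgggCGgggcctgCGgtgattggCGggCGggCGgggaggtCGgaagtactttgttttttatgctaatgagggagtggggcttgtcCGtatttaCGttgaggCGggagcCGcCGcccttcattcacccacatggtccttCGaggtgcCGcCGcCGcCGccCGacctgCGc
MIR106AHG, chrX:134174039-134174338, minus strand: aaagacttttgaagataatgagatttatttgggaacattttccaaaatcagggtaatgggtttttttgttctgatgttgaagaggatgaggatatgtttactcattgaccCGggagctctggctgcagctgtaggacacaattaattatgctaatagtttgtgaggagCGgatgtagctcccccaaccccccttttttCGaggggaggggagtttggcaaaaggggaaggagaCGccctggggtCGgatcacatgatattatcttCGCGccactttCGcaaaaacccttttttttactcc
The MIR210HG promoter held 44 CG, that of MIR31HG 39 and that of MIR23AHG 27. The MIR17HG promoter had 42 CG at 73.0% GC, and that of MIR106AHG had 8 CG at 44.3% GC.

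**Figure D5:**
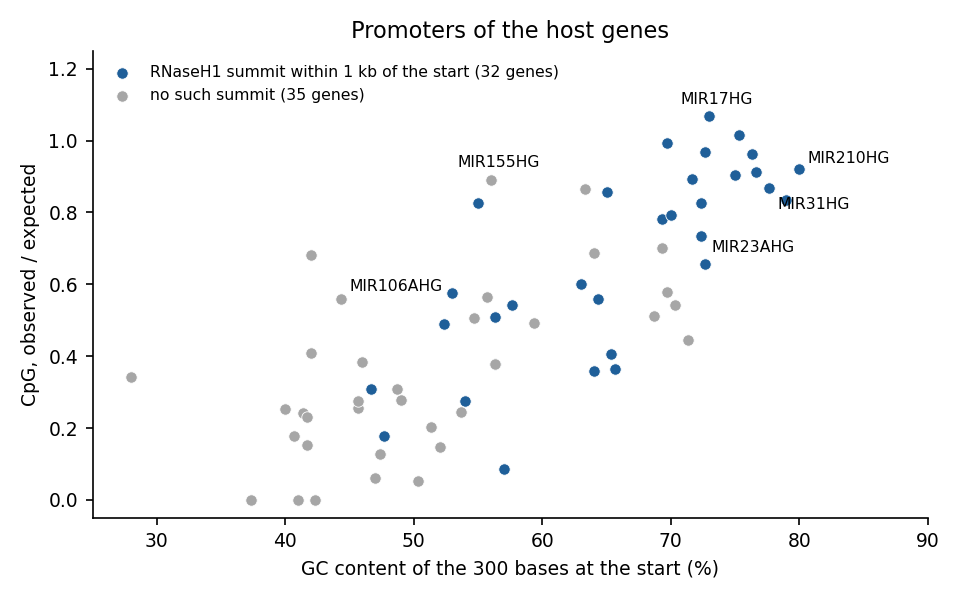
Ratio of observed to expected CpG (y axis) against GC content (x axis, %) of the 300 bases at the start of 67 host genes, with an RNaseH1 summit within 1 kb of the start (blue, 32 genes) or without (grey, 35 genes). Blue points have a median of 67.5% GC and grey points 48.7%, with 7 grey points at 60% or more.

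The 12 hosts of highest RNaseH1 fold had that peak near a boundary in 7 cases and inside the gene in 5. MIR210HG, host of the hypoxia-induced miR-210, had the highest, 5.44 (4.10 to 7.08), from 53 fragments where 8.93 were expected. Its peak at chr11:568373-569264 had the summit 491 bp before the start and 750 bp from the microRNA gene, so both zones applied. MIR31HG, host of miR-31, followed with 5.16 (4.41 to 6.0) at chr9:21559162-21560144, from 167 fragments where 31.5 were expected, 16 bp before the start and 47629 bp from MIR31. The intervals of the 2 overlap, so their order is not resolved.

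MIRLET7IHG, host of let-7i, had 4.32 (3.70 to 5.02) with its summit 9 bp inside the start. The peak was 1693 bp wide and reached the microRNA gene, and a boundary of the lncRNA gene LINC01465 lay within 1 kb of its summit. MIR3677HG had 4.74 (4.10 to 5.45) with the summit 633 bp before its start and a boundary of RNPS1, a splicing factor gene, within 1 kb. MIR1302-2HG had 4.66 (4.18 to 5.18), but it lies in a subtelomeric region with near-identical copies, and how such reads were assigned is not given, so this value is uncertain. MIR4713HG had 4.80 (3.83 to 5.96), 254 bp outside 1 boundary, with no strand listed. MIR194-2HG, host of miR-192 and miR-194-2, had its highest peak 458 bp past the end, 4.85 (3.62 to 6.36).

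The other 5 of the 12 had their highest peak inside the gene. MIR3681HG had 5.04 (3.14 to 7.73), MIR9-2HG 5.03 (3.40 to 7.20), MIR100HG 5.03 (3.13 to 7.71) and MIR217HG 4.29 (2.56 to 6.80). These rested on 19, 28, 19 and 16 fragments, and their intervals reach below 4. MIR9-1HG had 4.31 (3.47 to 5.30) from 88 fragments, 1384 bp wide, 7920 bp inside the gene boundary and 141 bp from another annotated start of the gene. Of the 96 summits away from boundaries, 4 were found within 1 kb of such an internal start. Another protein-coding or lncRNA gene had a boundary near 8, and 79 had none of these nor a microRNA gene found nearby. Starts were not listed for 18 of the 87 hosts, so summits in those hosts could not be checked against internal starts.

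At 19 hosts a summit lay within 1 kb of a hosted microRNA gene, and at 12 of these the summit was also within 1 kb of a boundary. Among the 12, MIR142HG, host of the blood-cell miR-142, had a summit inside MIR142, with a fold of 3.14 (2.17 to 4.39) at 32 fragments where 9.52 were expected. The gene is 1633 bp long, and the summit was 415 bp from its end. MIR200CHG, host of the epithelial miR-200c and miR-141, had 2.75 (2.34 to 3.20) from 162 fragments, with its summit 9 bp inside the start and 445 bp from MIR200C. MIRLET7BHG had a peak of 1.94 (1.27 to 2.84) over MIRLET7B and MIR4763, 13 bp from MIRLET7B and 255 bp from the end, with 24 fragments where 11.9 were expected.

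Of the remaining 9, MIR7-3HG had the most fragments of any host peak, 642 where 333 were expected, and one of the lowest folds, 1.93 (1.78 to 2.08). MIR503HG had 3.21 (1.78 to 5.42) from 12 fragments. MIR762HG had 2.87 (2.31 to 3.52) and MIR3663HG 3.57 (2.83 to 4.45), both with peaks over the microRNA gene. MIR4453HG had 2.88 (2.39 to 3.43) with FBXW7 at the boundary, and MIR4733HG 2.72 (2.14 to 3.41) with NF1 there. MIR1302-9HG, a copy of the subtelomeric kind above, had 3.52 (2.87 to 4.28). MIR210HG and MIRLET7IHG are described with the highest folds.

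At 7 hosts the summit was at a microRNA gene away from both boundaries. MIR137HG, host of the neuronal miR-137, had 3.62 (2.33 to 5.40) with the summit 141 bp from MIR2682 and 4201 bp inside the start. A boundary of the protein-coding gene LOC124904228 lay within 1 kb of that summit, so the peak cannot be given to 1 gene. MIR9-1HG had 2.49 (1.80 to 3.37) with the summit 16 bp from MIR9-1. MIR34BHG, host of the p53-induced miR-34b and miR-34c, had 2.65 (1.65 to 4.06) with the summit 67 bp from MIR34B. These 3 peaks overlapped the microRNA gene and rested on 22, 40 and 19 fragments. The mature miR-2682-5p and miR-34b-5p printed above share the seed AGGCAGU.

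MIR1915HG had 3.08 (2.46 to 3.82), 1294 bp inside its start, with a peak 1538 bp wide that reached MIR1915. MIR193BHG had 3.31 (2.13 to 4.94) at 497 bp from MIR365A, MIR124-2HG 2.32 (1.74 to 3.03) at 798 bp from MIR124-2, and MIR1-1HG 2.25 (1.42 to 3.42) at 977 bp from MIR1-1. The last 3 lay beside the microRNA gene without touching it. Over the 57 hosts with a peak, the one of highest fold was at a boundary in 30, at a microRNA gene only in 3, at neither in 21 and beyond the flank in 3 (MIR22HG, MIR34BHG and MIR762HG).

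Several hosts had peaks at many places along their length. MIR3667HG had 15 peaks in 242996 bp, with folds from 2.23 to 3.78 and 2 summits within 1 kb of a boundary. MIR9-2HG had 12, MIRLET7BHG 9 and MIR4435-2HG 7, and MIR100HG, MIR4713HG and MIR1-1HG had 6 each. Of the 9 at MIRLET7BHG, 8 had fewer than 30 fragments, and the peak before the start had 77. The 5 longest hosts were MIR3681HG (571233 bp, 5 peaks), MIR99AHG (561240 bp, 4), MIR924HG (545072 bp, 0), MIR4300HG (524063 bp, 1) and MIR100HG (394543 bp, 6). None of their 16 summits lay within 1 kb of a boundary or of a microRNA gene. Of the 3 shortest, MIR378D2HG (911 bp) and MIR200CHG (1203 bp) had 1 peak each and MIR670HG (1095 bp) had 0.

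Some microRNAs of the same seed came from hosts that differed in the RNaseH1 list. Of 24 seeds found in more than 1 host, 13 were split between hosts with and without a peak. Clusters share several seeds, so the 24 seeds stand for 14 different sets of hosts, of which 6 were split, and some sets share members. Among all hosts 65.5% had a peak, and no departure from that share is claimed for these sets. MIR17HG, host of the oncogenic miR-17-92 cluster, had a peak with its summit 948 bp inside the start and a fold of 2.38 (2.03 to 2.79), from 156 fragments where 64.9 were expected. MIR106AHG, whose miR-106a-5p shares the seed AAAGUGC, had no peak. MIR193BHG had 3 peaks and MIR365BHG none, with the same printed mature miR-365 sequence in each. MIR1-1HG had 6 and MIR133A1HG, the other host of the muscle microRNAs miR-1 and miR-133a, none. MIR181A2HG had a peak and MIR181A1HG none.

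In other families each host, or each but 1, had a peak. MIR9-1HG, MIR9-2HG and MIR9-3HG, the 3 hosts of the neural miR-9, each had a summit within 1 kb of the start, with start folds of 2.60 (1.5 to 4.25), 3.07 (2.01 to 4.51) and 2.55 (2.14 to 3.01). A boundary of GSCAR lay within 1 kb of the summit at MIR9-2HG. The let-7 seed GAGGUAG was in 7 hosts, 6 with a peak and 4 of these at the start. MIR4458HG was the 1 without. Start folds were 3.98 (3.43 to 4.58) at MIRLET7A1HG, 4.32 at MIRLET7IHG, 3.68 (2.26 to 5.70) at MIR4500HG and 3.0 (2.38 to 3.74) at MIRLET7BHG. The MIR4500HG summit, from 18 fragments, lay 461 bp before the start. Boundaries of the protein-coding genes SLITRK5 and LOC124900338 were within 1 kb of it. MIR100HG and MIR99AHG, which pair miR-100 or miR-99a with let-7 and miR-125b, had 6 and 4 peaks and none at the start. MIR200BHG and MIR200CHG both had a start peak.

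The 30 hosts without a peak in either list included MIR155HG, MIR223HG, MIR205HG, MIR302CHG, MIR133A1HG, MIR222HG, MIR106AHG, MIR181A1HG, MIR365BHG and MIR600HG. The others were MIR4432HG, MIR570HG, MIR3945HG, MIR4458HG, MIR4280HG, MIR3142HG, MIR548A1HG, MIR3147HG, MIR124-1HG, MIR2052HG, MIR3150BHG, MIR4290HG, MIR219A2HG, MIR670HG, MIR4307HG, MIR381HG, MIR2117HG, MIR924HG, MIR548XHG and MIR325HG. Among them are hosts of microRNAs known from immune cells (miR-155, miR-223), epithelia (miR-205) and pluripotent cells (miR-302). Hosts of microRNAs known from blood cells, muscle and liver (MIR142HG, MIR1-1HG, MIR122HG) were among those with a peak. Absence from a list says only that no peak passed the threshold of the peak caller.

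The genes that process and use microRNAs were also counted, from a list of 28. All 28 had an RNaseH1 peak over the gene or its flanks, against the 78.5% of protein-coding genes given above, and 24 had one at a boundary, against 67.1%. AGO1 and AGO3 lie side by side, and their highest peak is the same one, counted for both. Their median length was 51980 bp, and that of protein-coding genes 24475 bp. The highest folds were at TUT7 with 5.27 (4.42 to 6.24) and TUT4 with 5.20 (3.31 to 7.83), uridylyl transferases that tag precursors such as pre-let-7. SND1, a nuclease linked to microRNA decay, had 4.80 (3.08 to 7.16), and DIS3L2, the exonuclease that degrades uridylated pre-let-7, had 4.16 (2.55 to 6.44). The folds at TUT4, SND1 and DIS3L2 rested on 21, 22 and 18 fragments, and their summits were 10570, 61310 and 31749 bp from a boundary. That at TUT7 rested on 133 fragments, 32 bp from a boundary. The median highest fold of the 28 was 3.42, and the lowest was 2.41 at HNRNPA1.

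REXO4 peaks were at 7 of the 28 (25%, interval 10.7 to 44.9), against the 5.5% of protein-coding genes, and at boundaries in 4, against 3.82%. AGO2, the Argonaute that slices targets, had the highest fold, 4.09 (2.73 to 5.93), and LIN28B, which blocks let-7 maturation, had 3.73 (2.50 to 5.37). Both summits lay away from the gene boundaries, by 53493 and 3440 bp. The GW182 proteins that act with Argonaute, TNRC6A, TNRC6B and TNRC6C, had 1.95 (1.68 to 2.26), 1.86 (1.49 to 2.31) and 1.69 (1.49 to 1.89). DDX5, a helicase of the Drosha complex, had 1.81 (1.43 to 2.27), and KHSRP, a protein that binds precursor loops, 1.63 (1.42 to 1.86). AGO2 also had 21 RNaseH1 peaks, none at a boundary. The list was chosen with results of these data known and its genes are long, so the counts are a description.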

How the data were processed

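The data were 2 deposited peak lists from 12 libraries in 8 groups. The build was hg38 and the peak caller MACS2 2.1.0.20150731, per the submitters' processing notes, which also name HISAT2 2.2.1, SAMtools 1.17, Trim Galore 0.6.10, deepTools 3.5.1 and Cufflinks. Fold enrichment, a ratio, and -log10 p and -log10 q per peak are the authors' deposited values. The deposited score was not used. For peak calling, the control, the libraries entered, pooling and threshold were not given in the sources used here. Peak names carry the label ChIPseq2, so a list may rest on 1 replicate. The largest q was 0.198 for RNaseH1 and 0.179 for REXO4.

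Computed here: overlaps of at least 1 bp between peaks and genes with 1 kb on either side, zones by summit within 1 kb of a gene boundary or microRNA gene, and fragments with expected pileup, recovered from fold and p with a tolerance of 0.05. Fold intervals are exact Poisson and cover counting error only. Fold was compared within a list. Genes came from RefSeq for GRCh38.p14, 58957 of 59792, with 835 left out for want of a position or of order on their chromosome. Strand was listed for 69 hosts and not for 18. Code was tested on simulated data, with Python 3.11.15, NumPy 2.4.6, SciPy 1.17.1 and pandas 2.3.3.

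No test across groups was possible. Shares stand beside the same share over all lncRNA or protein-coding genes. Named were hosts with a REXO4 peak, the 12 of highest RNaseH1 fold, those with a summit at a microRNA gene, the 5 with most peaks, the 5 longest and 3 shortest, and pathway genes with a REXO4 peak or the 4 highest RNaseH1 folds. Genes of shared seeds were named after their values were seen. The members and lists were chosen with earlier results of these data known. Alternatives were the window, zone, overlap rule, q and fold limits, gene length and the boundaries counted.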

Additional observations from a re-analysis of the deposited data

How the results depend on the processing

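Of 53 alternatives, 34 stayed within 1.5 times the reported count, share or median, and 19 did not. The number of hosts with an RNaseH1 peak ran from 41 (fold of 3 or more) to 58 (flanks of 2500 bp). Without flanks, REXO4 peaks and hosts fell to 1 each, microRNA genes with an RNaseH1 peak to 12, and with 2500 bp the last rose to 46. With a -log10 q of 5 or more there was 1 REXO4 peak at 1 host and 67 RNaseH1 peaks, 52.2% at boundaries and 19.4% at microRNA genes. With a fold of 3 or more there were 0 REXO4 peaks at 0 hosts and 80 RNaseH1 peaks. Zones of 500 bp held 19.6% at boundaries and 6.08% at microRNA genes, and zones of 2500 bp held 25% at microRNA genes. Hosts of 10 kb or more had 21.4% and 7.69%. Pathway genes with a REXO4 peak fell to 4 at boundaries alone. Without hosts near a protein-coding boundary, 1 host had a REXO4 peak. This alternative and that of any annotated start were chosen after seeing the data. The highest fold lay at a boundary in 30 hosts, and the lowest q in 37. The cause was not tested. No paired analysis was possible because the lists hold no value per library, and no replicate could be left out. Depth per library is unknown, and most intragenic peaks rest on few fragments.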
